A study of Mus musculus with 6 samples.

Results

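The genes described here are 43 genes of glucose metabolism in the mouse: those of glucose uptake and glycolysis, of lactate and pyruvate handling, of the pentose phosphate pathway and of glycogen. The list is one of names and applies no threshold on the values, but it was drawn up with earlier results of these data known. Each was read from 1 probe set, the one with the highest mean over the 6 arrays among probe sets that the array's annotation pairs with a single gene. Of the 43 genes, 40 had such a probe set, out of 18194 genes on the array, and 39 passed a filter on low values. Gpi1, Eno1 and G6pdx were not analysed here, and Pdk2, an inhibitory kinase of the pyruvate dehydrogenase complex, was read but lay below the filter, at 2.01 to 2.14 on the 6 arrays, with a difference of -0.046 that was not tested.

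RNA came from myeloid cells of the femur and tibia marrow of HdcGFP mice on a C57BL/6 background, whose green fluorescent protein reports the gene of histidine decarboxylase. Both groups are labelled as sorted for GFP-positive or GFP-high cells that carry CD11b, the integrin subunit encoded by Itgam. The description of Gr1lo replicate 3 can also be read as GFP-negative, while its title and source name put it with the other Gr1lo samples. The first group, Gr1hi (n = 3), had high surface Gr1, an antigen of the Ly6G and Ly6C proteins, and the other group, Gr1lo (n = 3), had low Gr1. The mice are labelled female, no age or treatment is given, and the reporter allele is shared by both groups. The labels do not say whether replicates came from separate animals, so p-values measure the spread between these samples only. In bulk RNA of sorted cells, a change in the share of a cell type and a change in RNA per cell cannot be told apart.

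Glycolysis splits glucose into pyruvate, which is reduced to lactate and exported or oxidized in mitochondria. The pentose phosphate pathway branches off to make NADPH and ribose phosphate, and glycogen is the cell's glucose store. Mature neutrophils have few mitochondria and are known for living mainly on glycolysis, for using NADPH in the oxidative burst and for holding glycogen.

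All values are log2 probe set values, and a difference is Gr1hi minus Gr1lo on that scale. Different probe sets bind with different strength, so levels are compared between arrays and not between genes. The 6 arrays had medians of 2.86 to 2.94, and the highest value of the control probe sets for absent transcripts was 2.77. Arrays of a group correlated at 0.994 to 0.995 in Gr1hi and 0.990 to 0.996 in Gr1lo, and arrays of different groups at 0.873 to 0.914. Hdc was at 12.49, 12.52 and 11.99 in Gr1hi and at 10.99, 10.85 and 10.75 in Gr1lo, and Itgam differed by 0.89. Of 9 measured neutrophil markers 4 were called higher in Gr1hi and the others were not called, with a mean level of 13.79 to 13.85 in Gr1hi arrays and 12.35 to 12.80 in Gr1lo arrays. All 7 measured markers of dividing cells were lower, with a mean level of 7.57 to 7.76 in Gr1hi and 11.58 to 11.71 in Gr1lo, and Mki67, a nuclear protein of dividing cells, was at 10.29 ± 0.08 in Gr1hi and 12.90 ± 0.11 in Gr1lo (SD, n = 3). Of 6 monocyte markers 1 was higher and 1 lower, with mean levels of 5.97 to 7.0 in Gr1hi and 5.23 to 6.28 in Gr1lo. The higher one, Csf1r, differed by 4.01, at 11.78 ± 0.08 in Gr1hi and 7.77 ± 1.07 in Gr1lo (SD, n = 3). The lower one, F13a1, differed by -0.98. Of 6 basophil or mast cell markers 2 were lower, with mean levels of 3.50 to 5.21 in Gr1hi and 4.52 to 5.26 in Gr1lo. Among the other lists, 4 of 6 eosinophil, 4 of 5 T or NK cell and 3 of 5 erythroid markers lay below the absent-transcript controls on every array. Siglecf and Prg2, the other eosinophil markers measured, were not called. Siglecf was at 8.17 ± 0.08 in Gr1hi and 8.46 ± 0.34 in Gr1lo (SD, n = 3). Prg2 was at 4.75 ± 1.09 in Gr1hi and 3.94 ± 0.35 in Gr1lo. The remaining T or NK cell marker measured, Cd3d, was higher, at 8.49 ± 0.15 in Gr1hi and 4.32 ± 0.69 in Gr1lo (SD, n = 3). Of 8 macrophage markers 2 were higher and 1 lower, among them Adgre1, with a difference of 2.99, and Vcam1, with one of -5.25. Of 6 B cell markers 3 were higher and 1 lower, with mean levels of 3.42 to 3.73 in Gr1hi and 3.29 to 3.35 in Gr1lo. The replicate 3 arrays stood apart: the transcript Xist of the inactive X chromosome was at 10.14 in Gr1hi replicate 3 and 10.95 in Gr1lo replicate 3, and at 1.97 to 2.43 on the other 4 arrays. Mcpt8, a basophil protease, was at 7.74 in Gr1hi replicate 3 and 7.44 in Gr1lo replicate 3, and at 3.13 to 5.47 on the others. The Y-linked gene Eif2s3y was at 9.02 to 10.66 on all 6 arrays, against the label female. The part of these marker and sex-linked differences in the results below was not tested, and results are given without the replicate 3 arrays where they differ.

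Gr1hi cells had more transcript of all 3 listed glucose transporters, of the regulatory enzyme Pfkfb4 and of the lactate exporter Slc16a3. They had less of the transporter Slc16a1, of lactate dehydrogenase B and of the pentose phosphate enzymes Pgls, Rpia and Rpe. Of the 39 tested genes, 18 were higher, 11 were lower and 10 did not pass limma's adjusted p of 0.05, a share called of 74.4%. Over all 12733 tested genes that share was 56.4%, with 24.6% higher and 31.8% lower. A difference of at least 2-fold was called in 13 of the 39 genes, 5 higher and 8 lower, a share of 33.3% where all genes had 30.0%, of which 10.6% were higher and 19.4% lower. The groups did not overlap in 32 of 39 genes, or 82.1%, where all genes had 65.5%. The median difference was 0.18 in these genes and 0.03 over all genes. The share with a large difference was near that of all genes. Without both replicate 3 arrays, 14 of the 39 genes were higher and 10 lower. Of all 11956 genes tested without them, 2617 were higher and 3596 lower. Hk3, Pfkp, Aldoc, Gapdh, Pdk3 and Ugp2 lost their calls and Pfkm, at 0.50, gained one. Slc16a1, Ldhb, Slc16a3 and Pygb kept theirs, at -5.42, -4.74, 2.04 and -1.41.

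**Figure D1:**
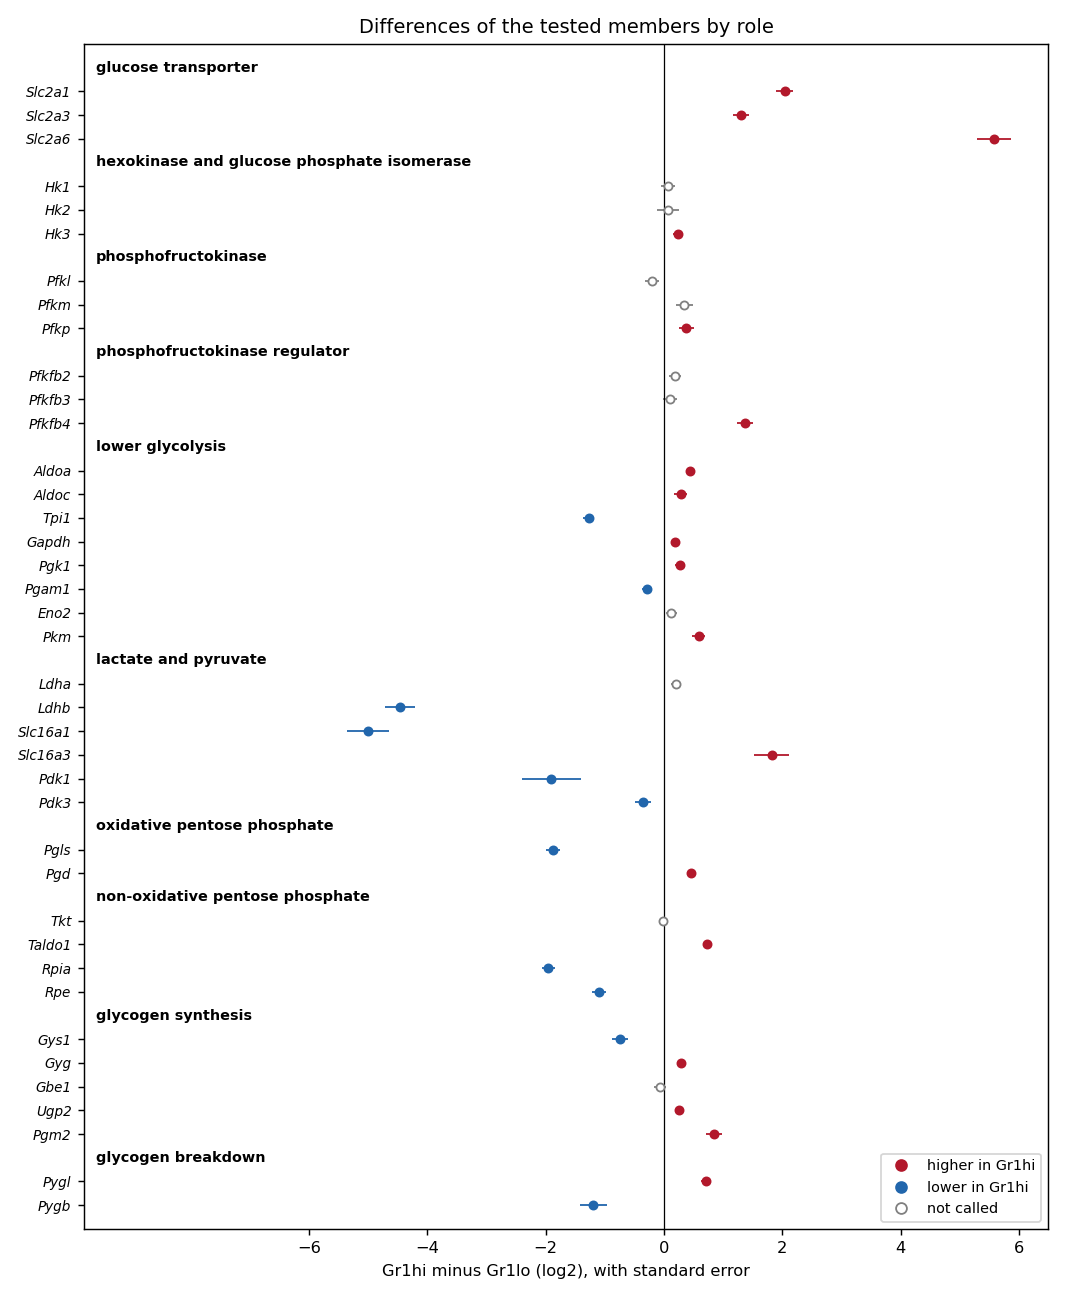
Gr1hi minus Gr1lo difference (log2, x axis) of each of the 39 tested genes, grouped by role, with the standard error of the fit as a bar; filled points passed an adjusted p of 0.05 and open points did not. Differences run from -5.0 for Slc16a1 to 5.59 for Slc2a6, and most genes of hexose phosphorylation and lower glycolysis lie within 1 unit of 0; of the called genes, Hk3, Gapdh and Ugp2 turn sign when each array is set to its hybridization controls, and Pgam1 and Pdk3 when it is set to its median gene.

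These counts depend on how the arrays are put on a common scale. Centring each array on the median of its tested genes (the median-centred scale) moved the median difference of all genes to 0.70, and that of the glucose metabolism genes to 0.86. On that scale 29 were higher and 8 lower, where 83.7% of all genes were called, 65.5% higher and 18.2% lower. Centring on 18 probe sets of added hybridization controls (the control-centred scale) moved the median of all genes to -0.23 and that of these genes to -0.08, with 8 higher and 12 lower, where 52.7% of all genes were called, 14.6% higher and 38.1% lower. Slc2a1, Slc2a3, Slc2a6, Pfkfb4, Slc16a3, Taldo1, Pygl and Pgm2 were called higher on all 3 scales. Tpi1, Ldhb, Slc16a1, Pdk1, Pgls, Rpia, Rpe and Pygb were called lower on all 3. The call turned direction between scales for Pfkl and Pgam1.

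**Figure D2:**
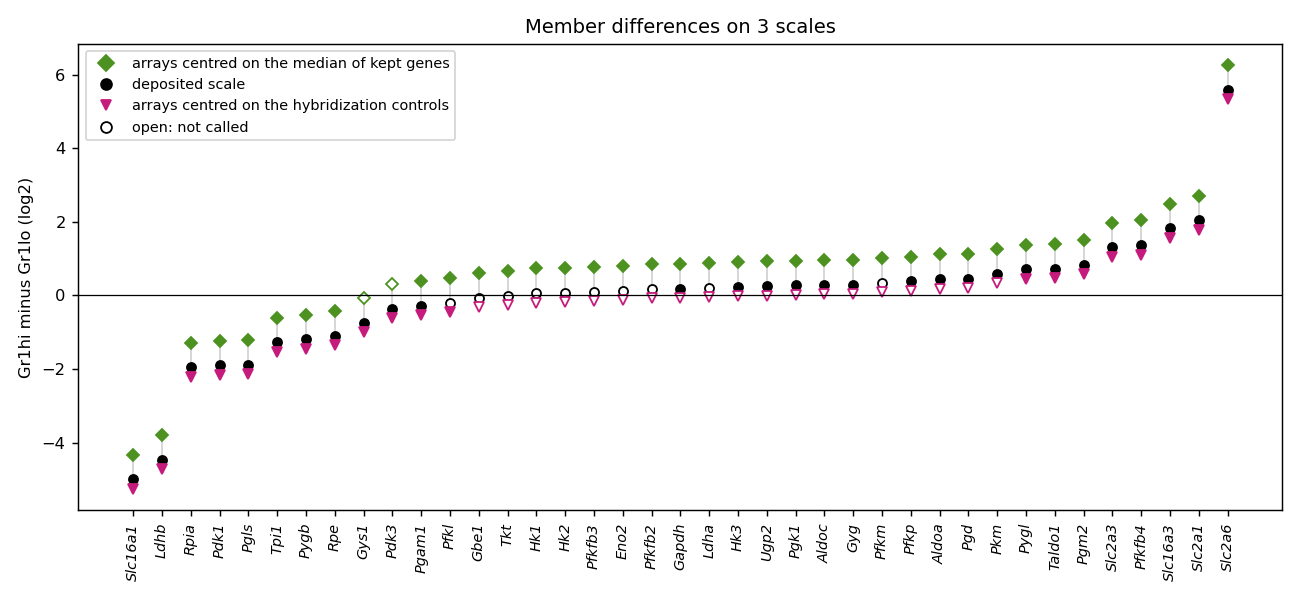
Gr1hi minus Gr1lo difference (log2, y axis) of the 39 tested genes, ordered by the deposited scale, on the deposited scale (circles), the median-centred scale (diamonds) and the control-centred scale (triangles); open symbols did not pass an adjusted p of 0.05. The 8 genes at the left and the 8 called higher on all 3 scales stay on their side of 0, while the genes between them change their call between scales.

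The stretch of 250 bases before the RefSeq transcription start (GRCm38.p6) was read for 42 of the 43 genes, Slc2a3 being the one with no entry. It is printed for the 3 genes with the largest rise and the 3 with the largest fall, which are Slc2a6, Slc2a1, Slc16a3, Slc16a1, Ldhb and Rpia. Capitals mark the core letters of the hypoxia response element, ACGTG or GCGTG on either strand, which hypoxia-inducible factors bind in many glycolytic genes. Each is written 5′ to 3′ along its gene's strand and ends at the base before the start.
Slc2a6: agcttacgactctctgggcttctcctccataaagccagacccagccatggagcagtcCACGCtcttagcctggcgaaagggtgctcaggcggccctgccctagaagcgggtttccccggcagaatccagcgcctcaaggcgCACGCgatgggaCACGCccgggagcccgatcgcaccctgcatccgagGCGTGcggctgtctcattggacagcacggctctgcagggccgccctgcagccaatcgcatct
Slc2a1: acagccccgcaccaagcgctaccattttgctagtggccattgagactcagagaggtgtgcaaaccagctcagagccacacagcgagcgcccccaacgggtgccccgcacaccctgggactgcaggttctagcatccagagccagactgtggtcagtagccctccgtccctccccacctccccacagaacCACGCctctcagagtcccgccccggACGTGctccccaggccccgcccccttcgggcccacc
Slc16a3: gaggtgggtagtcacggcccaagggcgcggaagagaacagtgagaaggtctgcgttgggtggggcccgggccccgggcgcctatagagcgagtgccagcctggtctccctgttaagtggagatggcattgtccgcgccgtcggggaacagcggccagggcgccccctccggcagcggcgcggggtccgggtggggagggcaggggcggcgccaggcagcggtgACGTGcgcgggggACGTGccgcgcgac
Slc16a1: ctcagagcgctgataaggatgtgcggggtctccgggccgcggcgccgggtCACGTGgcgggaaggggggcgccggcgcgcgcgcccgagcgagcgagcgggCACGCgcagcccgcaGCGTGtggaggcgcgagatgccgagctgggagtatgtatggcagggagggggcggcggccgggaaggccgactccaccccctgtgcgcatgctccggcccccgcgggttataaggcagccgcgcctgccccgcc
Ldhb: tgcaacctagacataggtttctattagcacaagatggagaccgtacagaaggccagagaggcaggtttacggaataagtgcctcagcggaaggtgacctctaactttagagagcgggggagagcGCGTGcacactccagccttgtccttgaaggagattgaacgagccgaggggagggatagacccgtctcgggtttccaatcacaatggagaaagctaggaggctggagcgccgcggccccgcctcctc
Rpia: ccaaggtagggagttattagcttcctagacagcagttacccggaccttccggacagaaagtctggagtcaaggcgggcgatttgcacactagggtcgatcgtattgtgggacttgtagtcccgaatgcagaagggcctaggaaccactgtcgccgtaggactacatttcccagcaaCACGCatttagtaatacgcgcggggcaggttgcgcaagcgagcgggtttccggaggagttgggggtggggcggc
The windows lie at chr2:27027999-27028248 (minus strand), chr4:119108495-119108744 (plus), chr11:120948817-120949066 (plus), chr3:104638414-104638663 (plus), chr6:142507958-142508207 (minus) and chr6:70792176-70792425 (minus), in the same order. They held 4, 2, 2, 4, 1 and 1 cores. In Slc16a1 the letters CACGTG, an E-box of the kind MYC binds, hold the core on both strands and count as 2.

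Over the 42 genes, 36 had a core in at least 1 window, or 85.7%, against 41.5% of all 27025 genes with a window and 58.9% of 10278 tested genes with one. By call, the core was present in 17 of 17 genes that were higher, 8 of 11 that were lower and 8 of 10 that were not called. No share by call over all tested genes stands beside these counts, and a tie between core and call was not tested. A gene with several windows has more chances of a match: the 42 genes had 60 windows, and all 27025 genes had 32851. Tpi1, Rpe, Gys1, Gbe1, Eno2 and Gpi1 were the genes with no match. Windows of these genes had a median of 14 CpG pairs and 60.2% GC, and windows of all genes 6 CpG pairs and 52.4% GC. The median of the tested genes was also 14 CpG pairs. Both core forms contain CG, so their share moves with CpG content, and the letters describe the sequence and not binding. The E-box letters were found in 6 of 42 genes, or 14.3%, against 9.67% of tested genes, and these were Ldha, Pdk2, Pfkfb2, Pfkfb3, Pfkm and Slc16a1.

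All 3 glucose transporters were higher in Gr1hi, on each of the 3 scales. Slc2a1, which encodes the widespread transporter GLUT1, was at 10.58, 10.97 and 10.55 in Gr1hi and at 8.62, 8.80 and 8.56 in Gr1lo. The groups were well apart, with a difference of 2.04 ± 0.14 (SE), or 4.11-fold (limma adjusted p = 2.41e-06). Slc2a3, which encodes the high-affinity transporter GLUT3, was at 13.40, 13.59 and 13.53 in Gr1hi and at 12.29, 11.86 and 12.45 in Gr1lo. It rose by 1.31 ± 0.13 (limma adjusted p = 2.63e-05), again with no overlap. Slc2a6, which encodes GLUT6 of the same family, was at 9.35, 9.42 and 9.38 in Gr1hi and at 4.52, 3.47 and 3.40 in Gr1lo. Its difference of 5.59 ± 0.29, or 48.0-fold, was the largest rise among the 39 genes (limma adjusted p = 4.54e-07), and its Gr1lo values lay within 2 units of the absent-transcript controls. The 3 probe sets of Slc2a1 gave differences of 2.04 to 2.96 and the 4 of Slc2a3 gave 1.31 to 2.03, all called higher. Without both replicate 3 arrays the differences of Slc2a1, Slc2a3 and Slc2a6 were 2.07, 1.42 and 5.39.

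**Figure D3:**
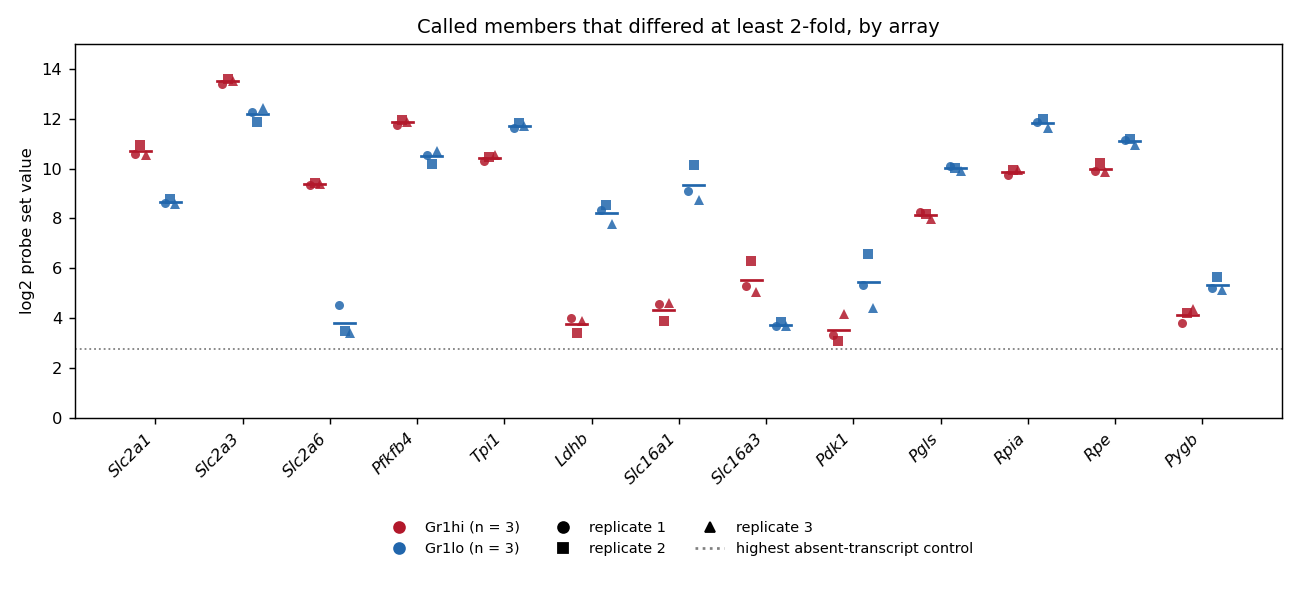
Log2 probe set value (y axis) on each of the 6 arrays for the 13 genes that were called and differed at least 2-fold; red symbols left of blue ones are Gr1hi and Gr1lo, shapes are replicate numbers, bars are group means and the dotted line is the highest absent-transcript control, at 2.77. The groups do not overlap in any of the 13, and the closest arrays are those of Pdk1, with 4.18 in Gr1hi replicate 3 and 4.41 in Gr1lo replicate 3.

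Of the hexokinases, which trap glucose by phosphorylation, 1 of 3 was called on the deposited scale, and all 3 were higher on the median-centred scale, by 0.74 for Hk1, 0.75 for Hk2 and 0.91 for Hk3. Hk1, the widespread isozyme, was at 9.57, 9.87 and 9.70 in Gr1hi and at 9.62, 9.58 and 9.75 in Gr1lo. Hk2, the inducible isozyme, was at 10.39, 11.09 and 11.00 in Gr1hi and at 10.61, 10.68 and 10.97 in Gr1lo. Both overlapped between the groups, with differences of 0.07 (95% interval -0.20 to 0.33) and 0.07 (-0.34 to 0.49). Hk3, the isozyme typical of myeloid cells, was called higher by 0.23 ± 0.08 (limma adjusted p = 0.0338), and by 0.48 in its second probe set. The first of these lost the call without any 1 of the 3 Gr1hi arrays or without Gr1lo replicate 2 or 3, at differences of 0.20 to 0.25, and stood at -0.027 on the control-centred scale.

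Phosphofructokinase, the main control point of glycolysis, is built from liver, muscle and platelet subunits. The platelet subunit Pfkp was higher by 0.38 ± 0.13 (limma adjusted p = 0.0282). Pfkp was not called without replicate 1 or 3 of either group, at differences of 0.33 to 0.38. The liver subunit Pfkl was near the absent-transcript controls, at 3.18, 3.08 and 3.24 in Gr1hi and at 3.24, 3.34 and 3.51 in Gr1lo. Its difference of -0.20 was not called. Pfkl was called lower, at -0.46, on the control-centred scale and higher, at 0.47, on the median-centred scale. The 3 probe sets of Pfkl disagreed in sign on the deposited scale, at -0.36 to 0.19, and none was called. Pfkm, the muscle subunit, differed by 0.35 and was not called (limma adjusted p = 0.0717), but passed without Gr1lo replicate 3, at 0.44.

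Of the bifunctional enzymes that make and remove the allosteric activator of phosphofructokinase, Pfkfb4 alone passed the test on the deposited and the control-centred scales, and all 3 passed on the median-centred one. Pfkfb4 was at 11.75, 11.95 and 11.88 in Gr1hi and at 10.55, 10.20 and 10.71 in Gr1lo. The groups did not overlap, and it rose by 1.37 ± 0.13, or 2.58-fold (limma adjusted p = 1.80e-05). Pfkfb3 was at 10.18, 10.16 and 10.04 in Gr1hi and at 10.09, 10.16 and 9.83 in Gr1lo. Pfkfb2 was at 3.01, 3.05 and 2.88 in Gr1hi and at 2.89, 2.67 and 2.83 in Gr1lo. The groups overlapped in both, with differences of 0.10 (95% interval -0.16 to 0.37) and 0.18 (-0.05 to 0.41), which stood at 0.78 and 0.86 on the median-centred scale. Pfkfb2 lay within 0.5 of the highest absent-transcript control on every array. A second, dimmer probe set of Pfkfb3 was called higher, by 0.47.

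In lower glycolysis, 5 of 8 tested genes were higher and 2 lower, where 24.6% of all genes were higher and 31.8% lower, and 7 of the 8 differed by less than 1 unit. On the control-centred scale these 5 rises were not called, and on the median-centred scale 7 were higher and 1 lower. Tpi1, triose phosphate isomerase, was the exception in size and was called lower on all 3 scales. It was at 10.31, 10.46 and 10.55 in Gr1hi and at 11.61, 11.82 and 11.70 in Gr1lo. The groups were clearly separate, and it fell by 1.27 ± 0.10, or 2.42-fold (limma adjusted p = 4.54e-06), and its 3 probe sets gave -1.40 to -1.27. On the deposited scale Aldoa, the main aldolase, which acts one step before it, rose by 0.44. Pkm, pyruvate kinase of most tissues, which ends the pathway, rose by 0.59.

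Smaller rises were those of Pgk1, phosphoglycerate kinase, by 0.27, Gapdh, glyceraldehyde phosphate dehydrogenase, by 0.18, and Aldoc, the brain-type aldolase, by 0.29. The other Pgk1 probe sets differed by 0.096 and 0.15 and were not called. Aldoc was read at 2.84 to 3.33, near the absent-transcript controls. Gapdh stood at -0.076, not called, on the control-centred scale. Pgam1, phosphoglycerate mutase, fell by 0.28, but was called higher, by 0.39, on the median-centred scale. Eno2, neuronal enolase, differed by 0.13, was not called and lay at 2.69 to 3.00. Gapdh lost its call without Gr1lo replicate 1 or Gr1hi replicate 2 or 3, at 0.15 to 0.18. Pgk1 lost it without Gr1lo replicate 1 or Gr1hi replicate 2, at 0.20 to 0.26. Aldoc lost it without any 1 array other than Gr1hi replicate 2, at 0.20 to 0.33. The distance between the 3′ and 5′ control probe sets of a gene is a measure of RNA and labelling quality. For Gapdh it was 0.35, 0.15 and 0.14 in Gr1hi and 0.45, 0.25 and 0.25 in Gr1lo. For Actb, the beta-actin gene, it was 0.76, 0.65 and 0.74 in Gr1hi and 0.94, 0.77 and 0.85 in Gr1lo. The groups overlapped in the Gapdh distance and did not overlap in the Actb distance. The part of RNA and labelling quality in these small differences was not tested.

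The genes of lactate and pyruvate held the largest falls. Lactate dehydrogenase is a tetramer of A and B subunits, of which A is typical of glycolytic tissue and B of oxidative tissue. Ldhb was at 4.0, 3.40 and 3.90 in Gr1hi and at 8.34, 8.55 and 7.80 in Gr1lo. The groups stood several units apart, and it fell by 4.46 ± 0.25, or 22.0-fold (limma adjusted p = 8.05e-07). Its 4 probe sets were all called lower, at -5.36 to -3.16. The Gr1hi values of Ldhb lay not far above the absent-transcript controls, which reached 2.77. Ldha was at 11.80, 12.05 and 11.90 in Gr1hi and at 11.60, 11.74 and 11.80 in Gr1lo. The Ldha groups did not overlap, but its difference of 0.20 (95% interval -0.0039 to 0.41) was not called (limma adjusted p = 0.0875). Ldha was called higher, by 0.88, on the median-centred scale and stood at -0.055, not called, on the control-centred scale.

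The transporters of lactate across the plasma membrane moved in opposite directions, on all 3 scales. Slc16a1, which encodes the monocarboxylate transporter MCT1, was at 4.56, 3.87 and 4.59 in Gr1hi and at 9.12, 10.15 and 8.75 in Gr1lo. It fell by 5.0 ± 0.35 on the log2 scale, or 32.0-fold, the largest fall among the 39 genes (limma adjusted p = 2.80e-06). A second Slc16a1 probe set lay below the filter on values and was not tested. Slc16a3, which encodes MCT4, known as the lactate exporter of strongly glycolytic cells, was at 5.30, 6.29 and 5.06 in Gr1hi and at 3.68, 3.84 and 3.67 in Gr1lo. The 3 Gr1hi arrays were all above the 3 Gr1lo arrays and spread more widely, with a rise of 1.82 ± 0.30, or 3.53-fold (limma adjusted p = 0.000568). Without each array in turn the Slc16a3 difference ran from 1.45 to 2.07. The Gr1hi values of Slc16a1 and the Gr1lo values of Slc16a3 lay not far above the absent-transcript controls, which reached 2.77.

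Pyruvate dehydrogenase kinases switch off the entry of pyruvate into the citric acid cycle. Pdk1 was at 3.33, 3.09 and 4.18 in Gr1hi and at 5.33, 6.57 and 4.41 in Gr1lo. The groups did not overlap, but the replicate 3 arrays of both groups nearly met. Pdk1 fell by 1.90 ± 0.49 (limma adjusted p = 0.00856), and by 2.74 without both replicate 3 arrays. Its 3 tested probe sets gave differences of -1.90, -0.91 and -0.22, of which the last was not called. Pdk3 fell by 0.36 ± 0.13 (limma adjusted p = 0.0458). Pdk3 lost the call without any 1 array other than Gr1hi replicate 2, at -0.40 to -0.28, and stood at 0.32, not called, on the median-centred scale.

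Within the pentose phosphate pathway, the enzymes went different ways. In the oxidative branch, which makes NADPH, Pgls, the lactonase of the middle step, was at 8.25, 8.19 and 7.99 in Gr1hi and at 10.10, 10.04 and 9.92 in Gr1lo. No arrays overlapped, and Pgls fell by 1.88 ± 0.12, or 3.67-fold (limma adjusted p = 1.91e-06). Pgd, the phosphogluconate dehydrogenase of the next step, was higher by 0.45 ± 0.06, in all of its 4 probe sets, but was not called on the control-centred scale.

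In the non-oxidative branch, which links ribose phosphate with glycolysis, the isomerase Rpia was at 9.75, 9.94 and 9.93 in Gr1hi and at 11.87, 11.98 and 11.64 in Gr1lo. Rpia fell by 1.96 ± 0.11, or 3.88-fold (limma adjusted p = 8.22e-07). Rpe, the epimerase that acts beside it on the same substrate, was at 9.90, 10.21 and 9.88 in Gr1hi and at 11.14, 11.19 and 10.95 in Gr1lo. For both enzymes all Gr1hi arrays were below all Gr1lo arrays, and Rpe fell by 1.10 ± 0.12 (limma adjusted p = 4.22e-05). The carbon-shuffling enzymes differed from these: Taldo1, transaldolase, rose by 0.73 ± 0.06 (limma adjusted p = 1.00e-05) and Tkt, transketolase, differed by -0.01 (95% interval -0.13 to 0.11). Another, dimmer probe set of Tkt was called higher, by 0.77. The markers of dividing cells given above also differed between these groups, and their part in the falls of Pgls, Rpia and Rpe was not tested.

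Of the glycogen genes, both phosphorylases passed the test, in opposite directions. Pygl, the liver-type phosphorylase, was at 13.92, 13.83 and 13.92 in Gr1hi and at 13.30, 13.02 and 13.22 in Gr1lo. It rose by 0.71 ± 0.08 (limma adjusted p = 4.17e-05). Pygb, the brain-type phosphorylase, was at 3.82, 4.22 and 4.38 in Gr1hi and at 5.20, 5.67 and 5.14 in Gr1lo. Both genes separated the groups on every array, and Pygb fell by 1.19 ± 0.22 (limma adjusted p = 0.00134). Both calls held on all 3 scales.

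Of the 5 genes listed under glycogen synthesis 3 were higher and 1 lower, each by less than 1 unit. Gys1, the muscle-type glycogen synthase, fell by 0.74 ± 0.14 (limma adjusted p = 0.00128), but stood at -0.066, not called, on the median-centred scale. Gyg, glycogenin, which primes the chain, was higher by 0.29 and Ugp2, which makes UDP-glucose, by 0.26. Neither was called on the control-centred scale, and Ugp2 lost its call without Gr1lo replicate 1, at 0.24. Gbe1, the branching enzyme, differed by -0.07 and was not called. Pgm2 was higher by 0.84 ± 0.13 (limma adjusted p = 0.000481). Pgm2 in the current naming is the mutase that acts mainly on pentose phosphates, and Pgm1, the main phosphoglucomutase of glycogen metabolism, fell by 1.64 ± 0.15.

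Differences between isozymes taken within each array do not depend on the scale of the arrays. Of 14 pairs, 13 had both genes measured, and in 8 the 3 Gr1hi differences did not overlap the 3 Gr1lo differences. Each of the 8 gave p = 0.1 in an exact two-sided permutation test, the smallest that 3 against 3 arrays allow, and 0.162 after adjustment over the 13 pairs. The largest was that of Slc16a3 minus Slc16a1, which changed by 6.82. It was followed by Ldha minus Ldhb, which changed by 4.67, and by Pygl minus Pygb, which changed by 1.90. Pfkfb4 gained 1.27 on Pfkfb3 and 1.19 on Pfkfb2, and Slc2a1 gained 0.73 on Slc2a3. Pfkl lost 0.58 to Pfkp and 0.55 to Pfkm. Pfkfb2, Pfkl and Pfkm lay close to the absent-transcript controls. On the deposited scale Pfkfb2 and Pfkl differed by only 0.18 and -0.20, less than their partner genes. On the control-centred scale Pfkl, at -0.46, differed by more than Pfkp, at 0.12, and Pfkm, at 0.088. How a change divides between the genes of a pair therefore depends on the scale. The groups overlapped for Pdk1 minus Pdk3, with a change of -1.54, for Aldoa minus Aldoc, with 0.15, and for the 3 hexokinase pairs, with changes of 0.0062 for Hk2 minus Hk1, 0.17 for Hk3 minus Hk1 and 0.16 for Hk3 minus Hk2. With the mean of all probe sets of each gene, Slc16a3 minus Slc16a1 changed by 4.38.

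**Figure D4:**
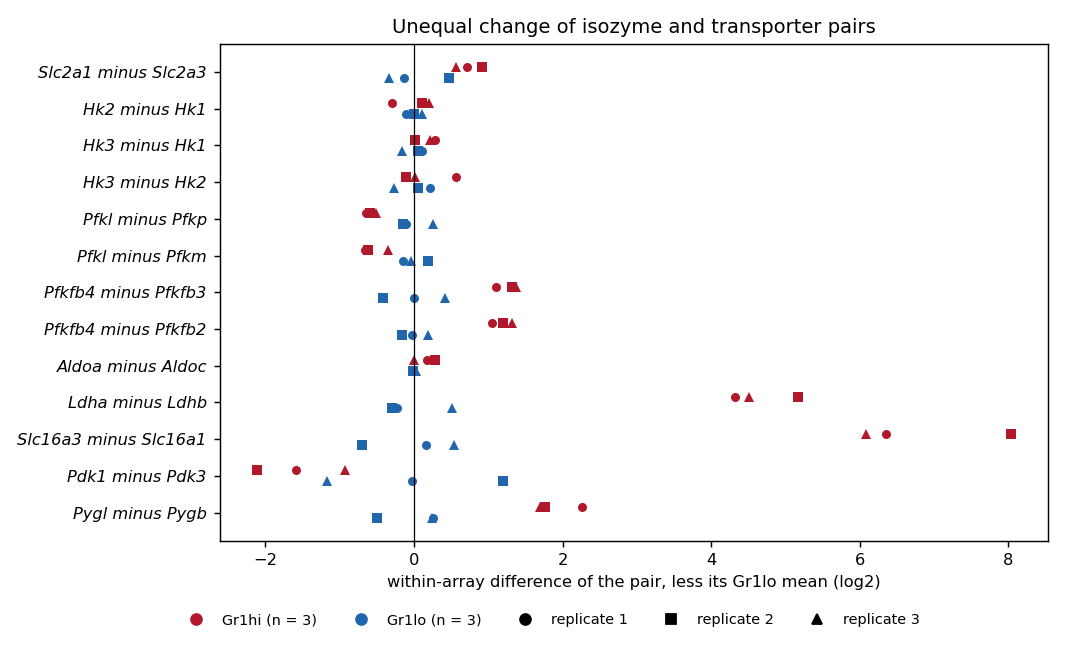
Difference between the 2 genes of a pair on the same array, less the mean of that difference over Gr1lo (log2, x axis), for 13 pairs of isozymes or transporters; red symbols above blue ones are Gr1hi and Gr1lo, and shapes are replicate numbers. The Gr1hi arrays lie farthest from the Gr1lo arrays for Slc16a3 minus Slc16a1 and Ldha minus Ldhb, and the hexokinase pairs lie around 0 in both groups.

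A further 67 genes of the same pathways were listed from textbook knowledge, of which 60 were measured and 49 tested. Of these, 5 were higher and 23 lower, with a median difference of -0.34, where 24.6% of all genes were higher and 31.8% lower and their median was 0.03. The counts of the groups within these 49 genes stand against the same shares. Without both replicate 3 arrays 8 were higher and 21 lower of 45 tested. The split turned with the scale: 22 were higher and 15 lower on the median-centred scale, and 3 higher and 28 lower on the control-centred scale. Among genes of pyruvate entry into mitochondria, 6 of 9 were lower and the others were not called. Of the pyruvate dehydrogenase complex, the subunit Dlat fell by 2.53 and the subunit Pdhx fell by 1.12. Pdp1, a phosphatase that switches the complex on, fell by 1.64. The Gr1hi values of Pdp1, 2.47 to 3.20, lay around the highest absent-transcript control, at 2.77. Those of Pdhx, 3.51 to 3.65, lay not far above it. Mpc1 of the mitochondrial pyruvate carrier differed by 0.0026 and was not called.

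Of 6 pentose phosphate neighbours 4 were lower and the others were not called. Of the enzymes that turn ribose phosphate into the precursor of nucleotides, Prps1 fell by 3.99 and Prps2 fell by 3.46. Rbks, ribokinase, fell by 1.38. Prps1 was at 3.61, 4.14 and 3.28 in Gr1hi and at 7.25, 8.40 and 7.34 in Gr1lo. The Gr1hi arrays all lay several units below the Gr1lo arrays. In the same pathway Rpia and Rpe, described above, were also lower.

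Of 14 tested genes around glycogen, 4 were higher and 7 lower. The 2 largest rises were those of Ppp1r3b and Ppp1r3d, which bring protein phosphatase to glycogen, by 3.06 and 2.22. Ppp1r3b was at 11.14, 11.40 and 11.06 in Gr1hi and at 8.31, 7.66 and 8.43 in Gr1lo, with no overlap. Phosphorylase kinase, which switches on the phosphorylases, went both ways. Its subunits Phka2, Phkb and Phka1 fell by 1.36, 1.23 and 0.50, and its catalytic subunit Phkg2 rose by 0.69. The Gr1hi values of Phka1, 2.46 to 2.61, lay below the highest absent-transcript control, at 2.77. Among sugar phosphate mutases Pgm3 fell by 1.44 and Pgm2l1 fell by 1.5. Their Gr1hi values, 3.42 to 3.69 and 3.27 to 3.43, lay not far above the absent-transcript controls.

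Of 9 genes of glucose release and gluconeogenesis, 1 was higher and 5 were lower. Fbp1, fructose bisphosphatase, fell by 3.27, Pck2, the mitochondrial PEP carboxykinase, fell by 1.40, and G6pc3, the widespread glucose phosphatase, fell by 1.10. The Gr1hi values of G6pc3, 2.72 to 2.81, lay around the highest absent-transcript control, at 2.77. Slc37a2, a sugar phosphate carrier, was higher by 1.48. Among isoforms outside the 43 genes, Slc16a7, the monocarboxylate transporter MCT2, fell by 1.84 and the other 7 tested were not called. The Gr1hi values of Slc16a7, 3.34 to 3.57, lay not far above the absent-transcript controls. The 3 glycerol phosphate dehydrogenase genes, with differences of -0.24 to -0.099, were not called.

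**Figure D5:**
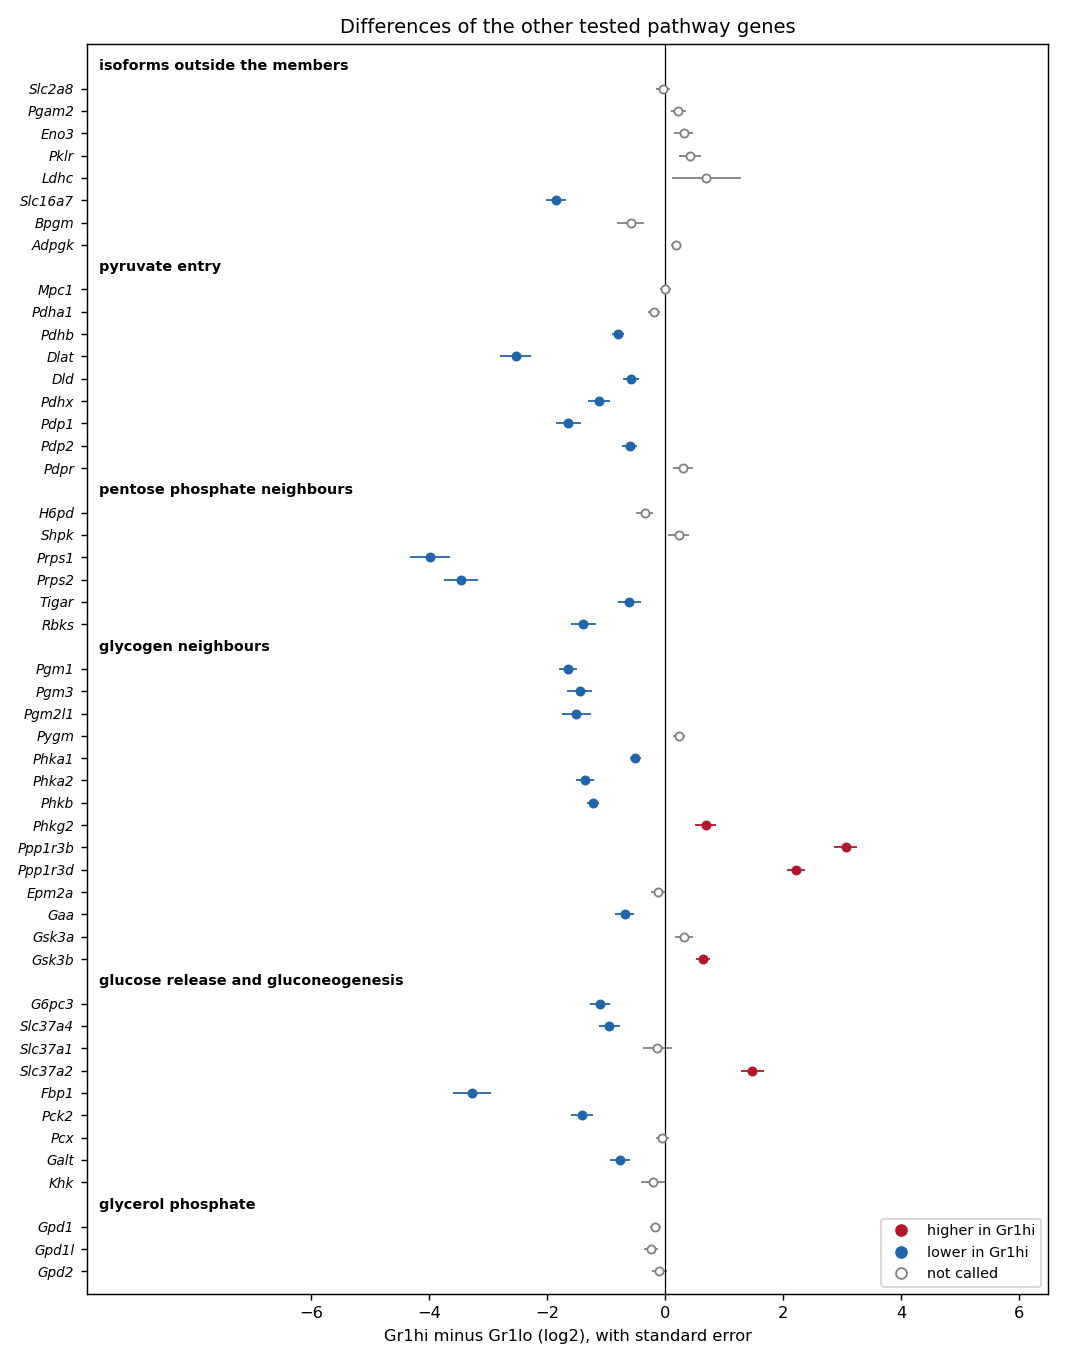
Gr1hi minus Gr1lo difference (log2, x axis) of the 49 other tested pathway genes, by group, with the standard error of the fit as a bar; filled points passed an adjusted p of 0.05 and open points did not. Points run from -3.99 for Prps1 to 3.06 for Ppp1r3b, with 23 called points left of 0 and 5 right of it on the deposited scale, a split that turns to 15 and 22 on the median-centred scale.

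Replicates of the 39 genes were close, with a median SD of 0.120 in Gr1hi and 0.115 in Gr1lo, against 0.153 and 0.151 over all genes. Gr1hi replicate 2 was the highest Gr1hi array in 22 of the 39 genes, against 36.1% of all genes, and Gr1hi replicate 1 the lowest in 20, against 33.5%. Of 20 genes with more than 1 tested probe set, all tested probe sets were called the same way in 10, some were called and none opposed in 7, and none was called in 3. Leaving out each array in turn, 22 of the 29 called genes stayed called and the 7 others were Hk3, Pfkp, Aldoc, Gapdh, Pgk1, Pdk3 and Ugp2.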

How the data were processed

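From each sample 100 ng of total RNA were biotin-labelled with a 3′ kit, per the labels' protocols. The authors deposited log2 values of probe sets, computed with GCRMA per the submitters' processing notes, whose version is not given in the sources used here. GCRMA as usually run makes the arrays' distributions alike, so a difference in total RNA per cell does not show. The table held 45101 probe sets, of which 34958 had 1 gene symbol in the platform annotation and 932 had several; 13 of those with 1 symbol are control probe sets, which is how Gapdh was read. Genes at or under the 40th percentile of an array on more than 3 of the 6 arrays were left out.

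Differences of Gr1hi and Gr1lo were tested two-sided with limma 3.58.1 (R 4.3.3; lmFit, then eBayes with its trend option). The p-values were adjusted over 12733 genes after Benjamini and Hochberg, and 0.05 was the threshold. The fit was tested on simulated data. Pairs of isozymes were compared by exact permutation with scipy 1.17.1, and figures were drawn with Python 3.11.15 and matplotlib 3.10.9. Every listed gene is named, with its difference where it was measured; all array values are given for called genes that differed at least 2-fold and for uncalled partners of a called gene in a pair; of the other pathway genes, those called with at least a 2-fold difference are named. Phkg2, Phka1, Mpc1, Slc2a8, Slc2a4 and the array values of Prps1 and Ppp1r3b were picked once the values were known. The members and lists were chosen with earlier results of these data known. Sequences are from RefSeq. The number of arrays limits the precision. Alternatives were other filters, probe set rules, variance models, normalizations, scales, weights, thresholds, the replicate number as a block, and arrays left out. Leaving control probe sets unnamed was added after the data were seen.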

Additional observations from a re-analysis of the deposited data

How the results depend on the processing

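On the median-centred scale, 8346 of all genes were higher and 2316 lower, 29 of the glucose metabolism genes were higher, and 22 other pathway genes were higher and 15 lower. On the control-centred scale, 1861 of all genes, 8 of the glucose metabolism genes and 3 other pathway genes were higher. Tested against a 1.5-fold change, 1355 of all genes were higher and 2419 lower, 5 of the glucose metabolism genes were higher, and 3 other pathway genes were higher and 15 lower. Repeated quantile normalization, array weights and leaving out both replicate 3 arrays each gave 8 other pathway genes higher, in place of 5. With the mean of each gene's probe sets, the change of Hk3 minus Hk1 was 0.34, of Pfkl minus Pfkp -0.36, of Slc16a3 minus Slc16a1 4.38 and of Pdk1 minus Pdk3 -0.36. A direction that was called in either fit turned on the control-centred scale for Hk3 (-0.027), Gapdh (-0.076) and Ugp2 (-0.00036), and on the median-centred scale for Pfkl (0.47), Pgam1 (0.39), Pdk3 (0.32), Tkt (0.67) and Gbe1 (0.61). These shifts follow from the centring, which adds 1 value to every gene; the cause of the other changes was not tested. Over 20 alternatives, 774 values of single genes gave 82 calls lost, 14 gained, 8 directions turned with a call in either fit and 670 with the same call. Of these 670, 13 changed sign without being called in either fit: on the control-centred scale Hk1 (-0.19), Hk2 (-0.19), Pfkfb2 (-0.077), Pfkfb3 (-0.16), Eno2 (-0.13) and Ldha (-0.055), and under other alternatives Hk1, Hk2 and Tkt. Without each array in turn, 13 to 16 of the glucose metabolism genes were higher and 10 to 11 lower. Among the other pathway genes 5 to 7 were higher and 20 to 23 lower. Of all genes, 2774 to 3001 were higher and 3675 to 3890 lower in these fits. The probe set of a gene was then chosen anew, and the Ldhb difference ran from -5.34 to -3.08. The change of Hk2 minus Hk1 ran from -0.09 to 0.16 and that of Hk3 minus Hk2 from -0.05 to 0.29. Arrays with the same replicate number deviated together at correlations of 0.17, 0.0043 and 0.15, and Gr1hi replicate 2 correlated best with Gr1lo replicate 3, so a pairing by number was not taken as given, although both replicate 3 arrays share high Xist and Mcpt8. With the replicate number as a block, 16 of the glucose metabolism genes were higher and 11 lower, and Hk3 and Aldoc lost their calls. Of all genes, 3039 were higher and 4019 lower with that block.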
